A study of Homo sapiens with 8 samples.

Results

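Transcript levels after 48 h and after 24 h of culture in DMSO were compared in 786-O cells labelled HIF2a null. The comparison uses 3 of the 8 arrays of the series. They are null cells after 24 h in DMSO, null cells after 48 h in DMSO and, as a second 24 h reference, null cells after 24 h with PT2399 at 2 uM. The null array at 48 h with PT2399 was left out. 786-O is an established line of clear cell renal cell carcinoma, HIF2a is the hypoxia-inducible factor subunit encoded by EPAS1, and PT2399 is a small-molecule inhibitor of HIF2a. Per the labels the null cells were made by CRISPR, and all 3 arrays carry that edit. The sources used here do not say whether the null cells are 1 clone or a pool, or whether medium was changed between 24 h and 48 h. The 4 parental 786-O arrays (DMSO and PT2399 at 24 h and 48 h) are set beside the null arrays. The genotypes were run as independent experiments, so a difference between them cannot be told apart from one between experiments. Each combination of genotype, treatment and time has 1 array, and the number of arrays limits the precision of every value below.

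Several gene systems bear on a second day in culture. Most small nucleolar RNAs guide the chemical modification of ribosomal RNA, and small Cajal body RNAs guide that of spliceosomal RNA. Most of them are cut out of the introns of host genes, many of which encode ribosomal proteins or translation factors. Mitotic genes are transcribed late in the cell cycle, genes of the amino acid response are raised by the factor ATF4 when amino acids run short, and interferon-stimulated genes are raised by signalling through STAT factors. Each of these systems is described below with its levels on the individual arrays.

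Values are deposited probe set intensities, and a difference is the log2 intensity at 48 h minus that at 24 h. The comparison covers 11050 of 18417 named genes, those whose mean level over the 7 arrays used reached percentile 40 (an intensity of 119). The null 48 h array correlated across genes with the 24 h DMSO array at r = 0.939 and with the 24 h PT2399 array at 0.954, while those 24 h arrays correlated at 0.983. The SD over genes was 0.49 for 48 h against 24 h in DMSO and 0.24 between the pair of 24 h null arrays. In parental cells the time difference had an SD of 0.21 in DMSO and 0.36 with PT2399. Across genes the null DMSO time difference correlated at r = 0.49 with that of the parental PT2399 pair. With the parental DMSO pair it correlated at -0.26. Median intensities over all probe sets were 121 and 118 on the 24 h null arrays and 99.4 on the 48 h array.

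EPAS1 itself stood at 650 (24 h DMSO), 682 (24 h PT2399) and 585 (48 h DMSO) in null cells, against 1277 and 1010 at 24 h and 48 h in parental DMSO cells. The sources used here do not place its probes with respect to the edit, so this level is only a partial check of the label. All 7 measured markers of renal epithelial and 786-O identity, among them PAX8, VIM and CDH6, passed the filter in the null arrays, with intensities from 339 to 10010. Of the markers of other cell types, 0 of 4 endothelial, 0 of 4 leukocyte and 0 of 5 fibroblast genes passed it, with summed intensities of at most 308 in any list and array. In a wider list of such markers 2 of 21 measured genes passed: CD68 stood at 730, 875 and 672 and ACTA2 at 184, 172 and 160 on the 24 h DMSO, 24 h PT2399 and 48 h arrays, and neither was called by limma. Of 5 genes of proximal tubule function 1 passed, at intensities between 69.6 and 136.

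Between 24 h and 48 h in DMSO, 92 genes were at least 2-fold higher (0.833% of those compared) and 246 at least 2-fold lower (2.23%). Against the 24 h PT2399 array, 70 were 2-fold higher (0.633%) and 137 lower (1.24%). Those passing 2-fold against both 24 h arrays numbered 28 higher (0.253%) and 83 lower (0.751%). Both differences share the 48 h array, so agreement between them says nothing of how another 48 h culture would behave. The pair of 24 h null arrays differed from each other by 2-fold in 26 genes, 2 higher with PT2399 (0.0181%) and 24 lower (0.217%). Parental cells in DMSO had 6 genes 2-fold higher at 48 h (0.0543%) and 14 lower (0.127%), and with PT2399 24 higher (0.217%) and 104 lower (0.941%). After quantile normalization of the arrays the counts against both null references became 66 higher and 50 lower, so the excess of falls depends on the scaling.

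A limma fit on the 3 null arrays called 736 genes higher (6.66%) and 1093 lower (9.89%) at 48 h, 16.6% in all, at an adjusted p under 0.05. It has 1 residual degree of freedom, its spread is that between the DMSO and the PT2399 array at 24 h, and the lone 48 h array is assumed to vary like them. Adjusted p-values from it are for these arrays and do not cover the spread between 48 h cultures. The 111 genes past 2-fold against both references were picked on these same arrays, so their calls by the fit are no separate check. The number of calls depended on the setting. With no filter on low values 5 genes were called, 2 of them among the 1829, and 6097 had an unadjusted p under 0.05. With the spread taken from 7 arrays 606 were called, and quantile normalization left 192, 112 higher and 80 lower. Centring each array on its median gave 458 higher and 1005 lower. Of the calls 40.2% were higher here, 31.3% after centring, and 58.3% both after quantile normalization and with the filter at the 60th percentile, so the balance of rises and falls among the calls turned with the setting.

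Small nucleolar and Cajal body RNAs were lower at 48 h as a class. Of the 83 genes 2-fold lower against both 24 h arrays, 24 were small RNAs of this class and 51 were protein coding. Of 191 such RNAs on the array 108 passed the filter, and 98 of the 108 were lower at 48 h than on either 24 h array, 6 were higher and 4 lay between. Their median difference was -0.94 against DMSO and -0.70 against PT2399 at 24 h, where all compared genes had medians of 0.04 and -0.02. The limma fit called 74 of the 108 lower, against 9.89% of all genes, and 0 higher, with 1 higher at an unadjusted p under 0.05. Called members numbered 48 with the spread from 7 arrays, 29 after quantile normalization and 2 with no filter. Other short or noncoding RNAs were lower too: among spliceosomal and other small nuclear RNAs (snRNA) 11 of 14 were lower against both arrays, with medians of -1.02 and -0.51 and 8 called lower. Long noncoding RNAs had medians of -0.40 and -0.31, with 116 of 170 lower and 47 called lower. The long noncoding RNAs were also dim, with a median log2 level of 7.44 against 8.49 for protein-coding genes. Dim genes in general were lower at 48 h (below), and the part of level in this fall was not tested. Without the filter the 191 small RNAs had medians of -0.57 and -0.42, and after quantile normalization the 108 had medians of -0.91 and -0.64. The small nucleolar and Cajal body class, the other RNA classes and the small RNAs named here were chosen after their values were seen.

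The lower levels covered box C/D, box H/ACA and Cajal body RNAs. The 57 RNAs with a SNORD symbol, most of which guide methylation of ribosomal RNA, had a median of -0.86 against 24 h DMSO. The 38 SNORA RNAs, which guide pseudouridylation, had a median of -1.10, and the 13 SCARNA RNAs one of -0.99. SCARNA8 had an intensity of 1025 at 24 h in DMSO, 1175 at 24 h with PT2399 and 213 at 48 h, a fall of 5.16-fold from the mean of the 24 h arrays (log2 -2.37, SE 0.18, limma adjusted p = 0.00110). SNORA33 went from 884 and 749 to 171, a 4.75-fold fall (log2 -2.25, SE 0.18). SNORD34 went from 1537 and 1651 to 495, and SNORA3B from 660 and 575 to 188. In each of these 4 RNAs the 48 h level lay far below both 24 h levels, which were close to each other. The highest difference in the class was that of SNORD45C, at 0.54 from the mean of the 24 h arrays.

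The host genes of these small RNAs were mostly not lower. RefSeq gene spans placed 105 of the 108 inside another gene, and 64 had a host that was itself measured past the filter, 50 hosts in all. Among the 50 hosts 33 were higher against both 24 h arrays, 8 lower and 9 between, where 43.4% of all genes were higher and 42.7% lower. Host medians were 0.21 and 0.11, and the protein-coding genes in the brightest of 10 equal bins of level had medians of 0.19 and 0.09. Over all genes the limma shares were 6.66% higher and 9.89% lower. Of these hosts 4 were called higher by limma, 0 were called lower (0 also at an unadjusted p under 0.05) and 0 were 2-fold lower. In 57 of 64 pairs the small RNA had a lower difference than its host against both references. SCARNA8 lies in HAUS6, a subunit of the augmin complex of the spindle, whose intensity went from 523 and 551 to 965 while SCARNA8 fell. SNORD54 went from 836 and 785 to 270, and its host RPS20, a protein of the small ribosomal subunit, stood at 3333, 2951 and 3351. SNORA20 went from 1689 and 1715 to 661, with its host TCP1, a chaperonin subunit, at 2403, 2380 and 2830. RPL23, a ribosomal protein gene and host of SNORA21, rose by 0.995 (SE 0.17, limma adjusted p = 0.0144) from 398 and 377 to 772. RPL23 was dim for its kind: the other measured ribosomal protein hosts stood between 1913 (RPL7A) and 10838 (RPS2) at 24 h in DMSO. How well its probe set reports the main RPL23 transcript was not tested. The probes of a small RNA lie in sequence that the unspliced host transcript also holds, so the mature RNA and its precursor cannot be told apart on these arrays.

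**Figure D1:**
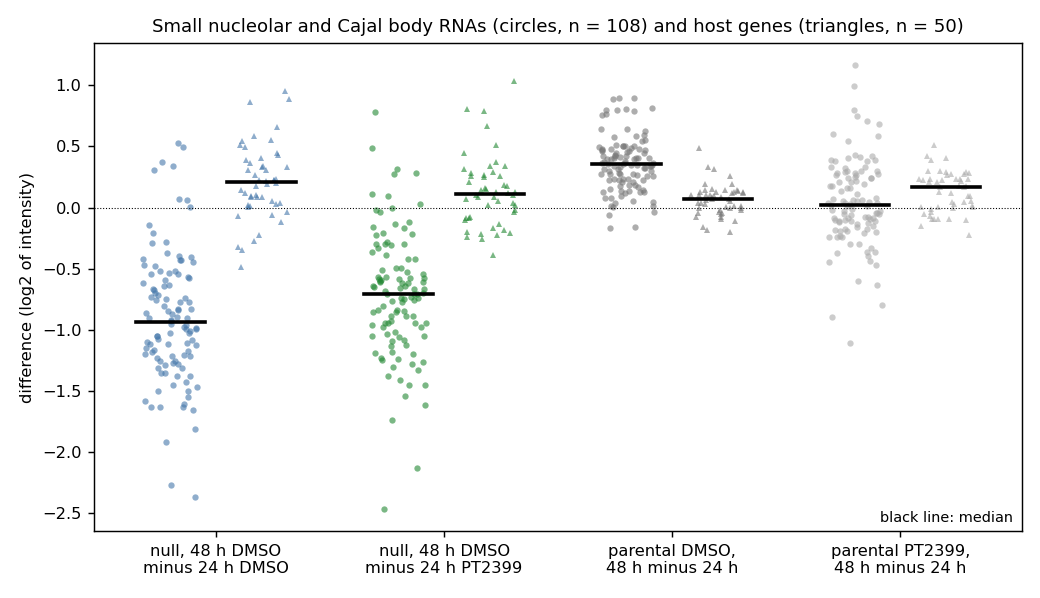
Difference between 48 h and 24 h on the log2 scale for the 108 small nucleolar and Cajal body RNAs past the filter (circles) and their 50 measured host genes (triangles), in both null comparisons and both parental pairs, with a black line at each median. In null cells the small RNAs have medians of -0.94 and -0.70 and the hosts 0.21 and 0.11, while in parental DMSO cells the small RNAs have a median of 0.35.

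Small RNAs that share a host did not all move alike. The 4 RNAs of SNHG14 lay between -0.96 and -0.80 from the mean of the 24 h arrays. The 4 of RPL13A ranged from -1.69 to -0.43. In GAS5, a noncoding host of many box C/D RNAs, 6 members ranged from -1.42 to 0.28, and the 3 of RABGGTB from -0.58 to 0.54. Members of the SNHG14 cluster are near-identical copies, and their probe sets can share signal.

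In parental cells the small nucleolar and Cajal body RNAs were not lower as a class. Its median time difference was 0.35 in DMSO, with 104 of 108 members higher at 48 h, and 0.02 with PT2399, with 57 higher and 51 lower. On the 24 h DMSO arrays the median null minus parental level of the class was -0.03, with 53 of 108 higher in null cells. On the 48 h DMSO arrays it was -0.998, with 4 of 108 higher in null cells. All compared genes had medians of -0.17 and -0.14 in these level comparisons.

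Whether the time difference itself differed between null and parental cells was tested by limma on 7 arrays, with a level and a time term for each genotype and a PT2399 term in parental cells. The fit called 10 of 11050 genes (0.0905%) at an adjusted p under 0.05, and 2111 had an unadjusted p under 0.05. Of the 10, 3 had a higher difference in null cells (0.0271%) and 7 a lower one (0.0633%). The 7 were small RNAs: SNORA33, SCARNA8, SNORD54, SNORA3B, SNORD34, SNORD38B and SNORA20. The class supplied 108 of the 11050 genes tested. This count and its direction also turned with the setting: with the filter at the 60th percentile 236 genes were called, 138 of them higher in null cells and 44 of them small RNAs of this class, and after quantile normalization 4 were called, 1 higher and 3 of them small RNAs. SNORA33 differed by -2.64 (SE 0.23, limma adjusted p = 0.0149), with parental intensities of 167 and 235 at 24 h and 48 h in DMSO and 175 and 215 with PT2399. Its null 48 h level of 171 thus lay within the parental range, and its null 24 h levels of 884 and 749 lay above it. SCARNA8 differed by -2.19 (SE 0.22, adjusted p = 0.0160), and its null 48 h level of 213 lay just below the parental range of 249 to 290. SNORD54 differed by -1.99 (SE 0.21, adjusted p = 0.0182) in another way: its null 24 h levels of 836 and 785 were close to parental levels of 793 to 1134, and its 48 h level of 270 was below all of them. SNORD38B was dim in null cells, at 138, 120 and 71.4, and differed by -1.73 (SE 0.23). The filter on the 3 null arrays and that at the 60th percentile left it out. Counting those, SNORD38B was called in 4 of 10 settings. SNORA20 was called in 5, SNORD34 in 6, SNORA3B in 7, and SNORA33, SCARNA8 and SNORD54 in 8 each.

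The other 3 genes of the 10 had a higher time difference in null cells, and their parental levels were lower at 48 h. MMP7, a matrix metalloprotease, had intensities of 400, 402 and 555 in null cells at 24 h DMSO, 24 h PT2399 and 48 h DMSO. In parental cells MMP7 went from 196 to 55.9 in DMSO and from 873 to 273 with PT2399, so the null minus parental difference was 2.21 (SE 0.21, limma adjusted p = 0.0152). CLDN2, a claudin of tight junctions, stood at 236, 245 and 245 in null cells and went from 318 to 102 in parental DMSO cells, a difference of 1.73 (SE 0.21, adjusted p = 0.0367). PLXDC2, a plexin-domain membrane protein, stood at 365, 356 and 498 in null cells and went from 458 to 203 in parental DMSO cells, a difference of 1.65 (SE 0.21, adjusted p = 0.0367). On the null arrays alone 0 of these 3 were called by limma, with adjusted p-values of 0.0821, 0.931 and 0.0835 and 2 unadjusted p-values under 0.05. When a PT2399 term was added for null cells, which leaves 1 residual degree of freedom, limma called 0 genes for the difference between genotypes and 1841 had an unadjusted p under 0.05. With no filter on low values 1 gene was called, and it was none of the 10. CLDN2 and PLXDC2 also missed the threshold after quantile normalization (limma adjusted p = 0.0719 and 0.0738) and with parental DMSO arrays alone (0.0567 for both), where MMP7 passed at 0.0351 and 0.0277.

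**Figure D2:**
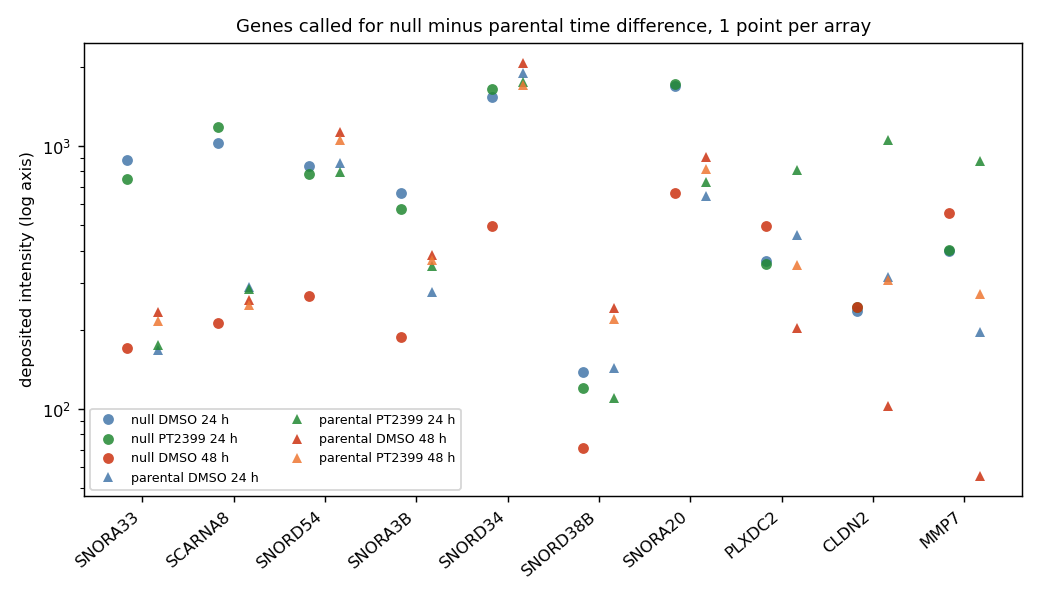
Deposited intensity, on a log axis, of the 10 genes with a called null minus parental time difference, with circles for the 3 null arrays and triangles for the 4 parental arrays. The 7 small RNAs have their null 48 h point below both null 24 h points (SNORA33 at 171 against 884 and 749), and MMP7, CLDN2 and PLXDC2 have parental 48 h points below the parental 24 h point of the same treatment.

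Among microRNA precursors 26 of 173 passed the filter, of which 20 were lower at 48 h than on both 24 h arrays, 1 was higher and 5 lay between. Their median was -0.56 against 24 h DMSO, and limma called 13 lower, against 9.89% of all genes, and 0 higher (0 also at an unadjusted p under 0.05). The parental PT2399 pair was lower for 23 of the 26 as well, with a median of -0.39, and the parental DMSO pair for 13, with a median of -0.002. These precursors were dim, with a median log2 level of 7.675 against 8.49 for protein-coding genes. Dim genes in general were lower at 48 h (below), and the part of level here was not tested. MIR193A was the precursor past 2-fold, with intensities of 719 and 534 at 24 h and 200 at 48 h, a fall of 3.11-fold (log2 -1.63, SE 0.21, limma adjusted p = 0.00869). Its parental intensities were 422 and 391 in DMSO and 541 and 444 with PT2399. The probe set is named for the precursor, so neither arm was measured by itself. Both mature arms are shown, from RefSeq on GRCh38.p14, since they carry the known targeting of this precursor, with the seed (bases 2 to 8) in capitals; their seeds differ.
hsa-miR-193a-5p: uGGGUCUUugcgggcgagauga
hsa-miR-193a-3p: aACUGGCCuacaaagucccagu

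The differences at 48 h also varied with the level of a gene. All 18417 genes were ordered by mean level into 10 bins of equal size, from bin 1, the dimmest, to bin 10. The median difference from 24 h DMSO was -0.20 in bin 1, -0.41 in bins 3 and 4, 0.02 in bin 7 and 0.18 in bin 10. Parental cells with PT2399 had a median of -0.37 in bin 3 and 0.06 in bin 10, and parental cells in DMSO had medians between -0.02 and 0.03 in all bins. In bins 3 to 5 the small nucleolar and Cajal body RNAs had medians of -0.37, -0.46 and -0.40. All genes of these bins were near that, at -0.41, -0.41 and -0.35. In the other bins the small RNAs did not follow this course. In bins 6 to 10 their median lay between -1.21 and -0.91, where protein-coding genes of the same bins had medians between -0.14 and 0.19. In bin 1, where 43 of the small RNAs lay, their median was 0.26. Short genes were also lower than long ones: of 5 bins of protein-coding genes by genomic span, the shortest (median 4.59 kb) had a median of -0.26 and the longest (median 149 kb) one of 0.22, against 0.06 and -0.06 in parental DMSO cells. In the parental PT2399 pair the shortest bin was at -0.14 and the longest at 0.004, the same direction as in null cells. The part of level and gene length in the other results was not tested.

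**Figure D3:**
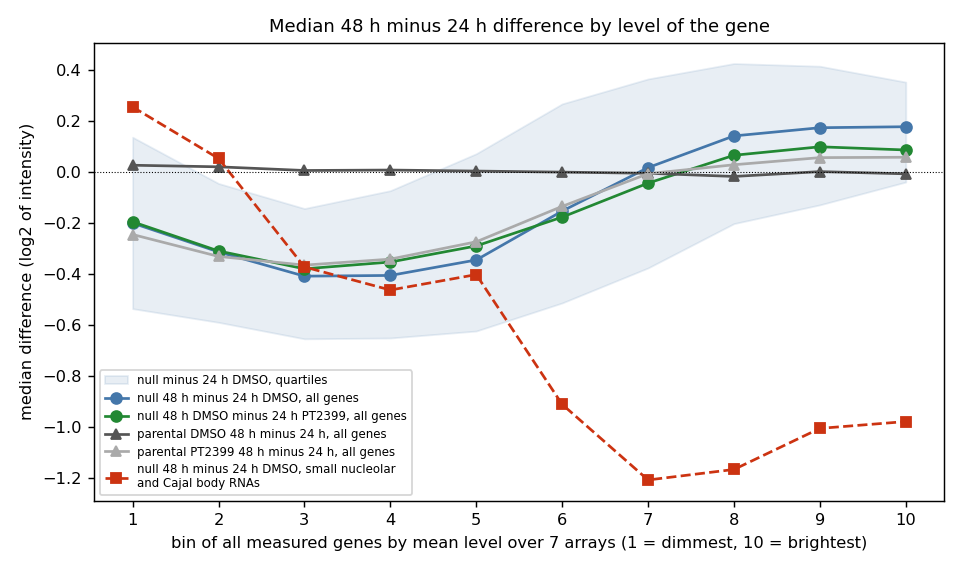
Median 48 h minus 24 h difference on the log2 scale in each of 10 bins of all measured genes, ordered from dim to bright by mean level over 7 arrays, with the quartiles of the null DMSO difference shaded. The null DMSO curve runs from -0.41 in bin 3 to 0.18 in bin 10, parental DMSO stays between -0.02 and 0.03, and the small RNAs (dashed) lie between -1.21 and -0.91 in bins 6 to 10.

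The 15 largest rises, ranked by the smaller of both differences, were led by HERC6, CARS1 and CENPH. The ranking used the same 3 null arrays that limma fitted, so calls of these genes are no separate check. HERC6, an interferon-induced HECT-domain protein, had intensities of 135 and 158 on the 24 h DMSO and PT2399 arrays and 415 at 48 h, a rise of 2.84-fold (log2 1.51, SE 0.18, limma adjusted p = 0.00869). CARS1, the cytosolic cysteinyl-tRNA synthetase, went from 776 and 963 to 2398, a rise of 2.77-fold (1.47, SE 0.19). In both genes the 48 h value was over 2-fold above the higher 24 h value, and their 4 parental intensities lay between 164 and 189 for HERC6 and between 460 and 490 for CARS1. CENPH, a kinetochore protein, went from 131 and 121 to 322, and ESCO2, which acetylates cohesin in S phase, from 287 and 281 to 696. HACD3, a dehydratase of very long chain fatty acid synthesis, went from 797 and 782 to 1829. RPE, an epimerase of the pentose phosphate pathway, went from 367 and 315 to 827, and RAD17, the loader of the checkpoint clamp, from 107 and 97.7 to 228. In the parental PT2399 pair 13 of the 15 were also higher at 48 h, with a median of 0.23, most in RAD17 (1.12), ZNF675 (1.03) and CENPH (0.82), while the parental DMSO pair lay between -0.25 and 0.17. All 15 were called by limma on the null arrays and all 15 after quantile normalization (adjusted p = 0.0488 for each). With the spread taken from 7 arrays 14 were called, and with no filter on low values 0 (adjusted p = 0.0635 for each). The remaining 8, each 2.19-fold to 2.63-fold higher, were OSTF1, ZNF675, TMEM41B, TXNDC9, MRPL42, MAP3K2, CEP15 and NUDT6. Of these, ZNF675 was dim in null cells, at 63.5 and 46.0 at 24 h and 142 at 48 h. It passed the filter through parental levels of 164 to 336, and a filter on the 3 null arrays left it out. RAD17 passed the main filter only with its 48 h level of 228, so the filter favoured its rise. For the difference from parental cells 0 of the 15 passed limma, with 13 at an unadjusted p under 0.05 and the lowest adjusted p at 0.0798 for HERC6.

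The 15 largest falls outside the small RNAs had mean intensities on the 24 h arrays from 108 (KCNN1) to 1466 (POLRMT). The 15 rises ran from 54.0 (ZNF675) to 864 (CARS1) there, so by these ranges the falls were not the dimmer set at 24 h. These falls were ranked in the same way on the same arrays, so calls of them by limma are no separate check either. INSL3, a relaxin-family peptide hormone, went from 283 and 264 to 98.4 (log2 -1.47, SE 0.17, limma adjusted p = 0.00869), and RAB3D, a GTPase of regulated secretion, from 381 and 418 to 149. LYPD5, an LY6 and PLAUR domain protein, went from 395 and 321 to 124, and CDH24, a cadherin, from 439 and 420 to 177. POLRMT, the RNA polymerase of mitochondria, was the brightest of the 15, going from 1489 and 1443 to 646, a fall of 2.27-fold (-1.18, SE 0.17, adjusted p = 0.0103). In parental cells POLRMT had time differences of -0.03 in DMSO and 0.16 with PT2399, and the null minus parental difference of -1.25 did not pass (limma adjusted p = 0.0860). COQ10A, a coenzyme Q binding protein of mitochondria, went from 353 and 357 to 153. The others were KCNN1, B3GNT4, KLHDC7B, ITIH6, LY6D, DND1, TNN, ARC and SETBP1. A filter on the 3 null arrays left out KCNN1 (102, 114 and 40.5) and DND1 (168, 143 and 61.3). Their parental levels were higher, at 197 to 314 for KCNN1 and 592 to 1159 for DND1. ITIH6 (294, 376 and 120.5 in null cells) and SETBP1 (209, 215 and 95.4) had low parental levels, at 90.5 to 95.3 and 82.7 to 107. Both passed the main filter only through their null 24 h levels, so the filter favoured their falls. The parental PT2399 pair was also lower at 48 h for 13 of the 15, all but TNN and POLRMT, with a median over the 15 of -0.66 and the lowest value in LY6D (-1.43). The parental DMSO pair was lower for 7 and higher for 8, between -0.37 and 0.39. With no filter on low values limma called 0 of these 15 falls (adjusted p = 0.0635 for each). The 51 protein-coding genes 2-fold lower against both arrays had a median intensity of 212 over the 7 arrays. The 26 protein-coding genes 2-fold higher had 372, and all genes past the filter 353. The level over 7 arrays includes the 48 h array itself, which lowers it for falls and raises it for rises.

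**Figure D4:**
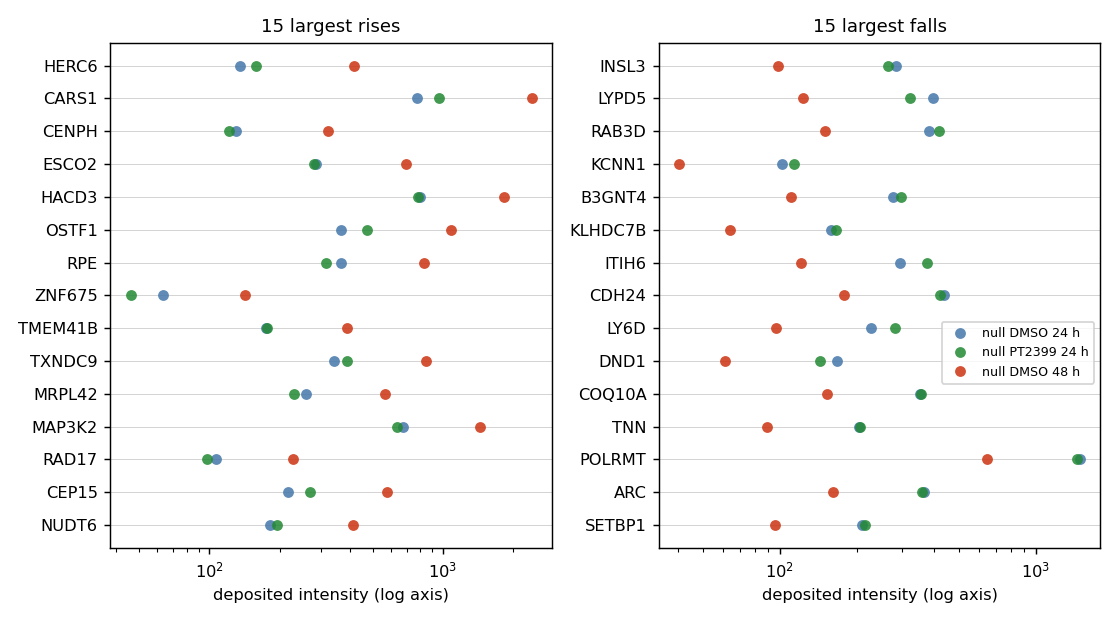
Deposited intensities, on a log axis, of the 15 largest rises and the 15 largest falls that the naming rule allows, with 1 point for each of the 3 null arrays. The ranking takes only genes with both 24 h points on one side of the 48 h point. Examples are CARS1 at 776 and 963 against 2398 and POLRMT at 1489 and 1443 against 646.

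Of 31 gene lists written for a culture of kidney cancer cells, 3 had at least 75% of their members past the filter higher against both 24 h arrays, 0 were one-sided in the lower direction, 27 were neither and 1 had too few members. Among all genes compared 43.4% were higher and 42.7% lower against both, which is the background for these counts. For members that rose or fell by limma, the background is 6.66% of all genes rising and 9.89% falling. Over all genes, level bins 7 to 10 had positive medians against 24 h DMSO, and the part of level in these counts was not tested.

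Genes of G2/M and mitosis were higher at 48 h in 33 of 41 cases, lower in 6 and between in 2, with medians of 0.28 and 0.35 against the DMSO and PT2399 arrays. In parental cells the list had medians of 0.03 in DMSO and 0.28 with PT2399. CDK1, the kinase that drives entry into mitosis, had intensities of 458, 361 and 852 on the 24 h DMSO, 24 h PT2399 and 48 h arrays and rose by 1.07 (SE 0.20, limma adjusted p = 0.0147). TTK, a spindle checkpoint kinase, went from 507 and 474 to 894, and PLK4, the kinase of centriole duplication, from 416 and 394 to 663. NUSAP1, which binds spindle microtubules, went from 1092 and 943 to 1661. These 4 of 41 rose by limma and 0 members fell, where 6.66% of all genes rose, a share near that of the list. MKI67, the proliferation marker, stood at 2173, 2035 and 2911 and did not pass (0.47, SE 0.17, limma adjusted p = 0.0839). In the list of G1/S and replication genes 27 of 43 were higher and 11 lower, and the 4 that rose by limma, again a share near that of all genes, were E2F8, MCM4, CDT1 and PCNA. PCNA, the sliding clamp of DNA polymerases, went from 855 and 1010 to 1464.

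Growth inhibitors moved in both directions at the same time. In the list of CDK inhibitors and quiescence genes 10 of 19 were higher and 8 lower. CDKN1A, the CDK inhibitor p21, went from 1616 and 1574 to 2803, a rise of 0.81 (SE 0.17, limma adjusted p = 0.0205), with parental differences of -0.24 and -0.37. CCNG2, an atypical cyclin of non-cycling cells, fell from 822 and 814 to 417 (-0.97, SE 0.17, adjusted p = 0.0147), and it was also lower at 48 h in both parental pairs, at -0.95 and -0.72. YPEL3, CDKN2B and FOXO4 fell as well. By limma 6.66% of all genes rose and 9.89% fell. Among 21 p53 targets 11 were higher and 8 lower, with 4 rising by limma, CDKN1A, TIGAR and RRM2B among them, and BBC3 and FAM210B falling.

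The promoter of CDK1 is shown because CDK1 had the largest rise of the mitotic list. It is the RefSeq stretch from 250 bases before to 50 after the start of the gene, on the plus strand of GRCh38.p14 at chr10:60778081-60778380. Capitals mark a match to the letters TTTGAA of the cell cycle homology region, searched on both strands, which begins 161 bases before the start. Whether this match is a working element of CDK1 was not tested.
CDK1: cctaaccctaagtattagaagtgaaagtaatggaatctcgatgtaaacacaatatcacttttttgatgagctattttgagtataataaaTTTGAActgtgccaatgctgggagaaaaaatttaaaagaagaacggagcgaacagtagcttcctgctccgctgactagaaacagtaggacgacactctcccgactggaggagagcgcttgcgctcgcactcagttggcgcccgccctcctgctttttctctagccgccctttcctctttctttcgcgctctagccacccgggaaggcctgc
These letters occur in 15.4% of 27305 promoters of the same length and in 23 of the 35 mitotic members with a promoter entry. The members with a match had a median difference of 0.40 from the mean of the 24 h arrays and the 12 without a match one of 0.28, which is given as a description.

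Interferon-stimulated genes were higher against 24 h DMSO, and less so against 24 h PT2399. Of 33 members 23 were higher against both arrays, 4 lower and 6 between, with medians of 0.51 and 0.09. The 24 h PT2399 array was itself above the 24 h DMSO array for these genes, with a median of 0.25. Parental cells had medians of -0.28 in DMSO and -0.17 with PT2399. The limma shares over all genes were 6.66% higher and 9.89% lower. By limma 6 members rose, HERC6, SAMD9, IFIT5, HERC5, PARP9 and SAMD9L, and IRF7, a transcription factor of the pathway, fell from 226 and 169 to 118. SAMD9, a cytoplasmic antiviral factor, went from 573 and 503 to 901 (0.75, SE 0.18, limma adjusted p = 0.0260), and IFIT5, an RNA-binding protein of the IFIT family, from 250 and 328 to 480. IFIT1, which binds foreign capped RNA, stood at 260, 388 and 525 and did not pass (limma adjusted p = 0.0574); it and IFI44L were picked after their values were seen. IFI44L stood at 248, 342 and 465 in null cells and went from 246 to 90.2 in parental DMSO cells, yet its null minus parental difference of 1.95 (SE 0.29) did not pass either (limma adjusted p = 0.0760). Of the 33 members 0 passed for that difference, and 15 had an unadjusted p under 0.05. OAS1 and TAP1 lay below the 24 h levels at 48 h, at 185 against 187 and 220, and at 359 against 405 and 551.

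The promoter of IFIT1 is printed as an example of a canonical interferon-responsive start region, from RefSeq on GRCh38.p14, chr10:89392373-89392672, plus strand. Capitals mark the core of the interferon-stimulated response element (ISRE), searched on both strands, which here lies on the reverse strand in 2 copies that begin 116 and 103 bases before the start.
IFIT1: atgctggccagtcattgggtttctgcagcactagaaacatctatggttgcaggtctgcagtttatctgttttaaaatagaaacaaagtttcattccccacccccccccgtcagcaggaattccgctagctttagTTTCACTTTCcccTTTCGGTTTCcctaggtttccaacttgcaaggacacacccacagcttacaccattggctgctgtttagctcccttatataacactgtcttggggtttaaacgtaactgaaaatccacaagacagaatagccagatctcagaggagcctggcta
This core was found on either strand in 3.65% of the 27305 promoters and in 16 of the 28 interferon members with an entry. The 16 had a median of 0.56 against 24 h DMSO and 0.27 against PT2399, and the 12 without it 0.54 and 0.18. No search pattern used here contains another.

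Genes of the amino acid response split in the same way between the references. Of 33 members 18 were higher against both arrays, 4 lower and 11 between, with medians of 0.34 against DMSO and 0.01 against PT2399, and the 24 h PT2399 array was above the 24 h DMSO array by a median of 0.31. CARS1 and PSPH, the last enzyme of serine synthesis, rose by limma, and ATF5 and SLC1A5, a glutamine transporter, fell. PSPH stood at 564, 904 and 1534, so that its 24 h values already differed by 0.68 (1.10 against their mean, SE 0.25, limma adjusted p = 0.0235). SLC1A5 went from 1024 and 1171 to 721. ASNS, asparagine synthetase, and CTH, an enzyme of cysteine synthesis, were highest on the 24 h PT2399 array, at 1328 and 1644, with 1106 and 1332 at 48 h and 823 and 914 at 24 h in DMSO; they are named after their values were seen. Of the other aminoacyl-tRNA synthetases in the list 0 of 6 were called by limma and 1 had an unadjusted p under 0.05: GARS1 stood at 4329, 5508 and 5426, and AARS1 at 1527, 2088 and 1773.

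The promoter of CARS1, the largest rise of that list, is given from RefSeq on GRCh38.p14, chr11:3057374-3057673, minus strand. Capitals mark the core TGATGNAA of the C/EBP-ATF response element, read on the opposite strand, with its match beginning 2 bases before the start.
CARS1: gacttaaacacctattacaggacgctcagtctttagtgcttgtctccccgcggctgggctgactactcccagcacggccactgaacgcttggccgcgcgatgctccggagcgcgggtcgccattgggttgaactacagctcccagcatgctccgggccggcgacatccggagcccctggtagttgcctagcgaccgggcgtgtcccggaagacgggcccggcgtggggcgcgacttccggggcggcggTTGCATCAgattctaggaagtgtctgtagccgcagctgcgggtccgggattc
Such letters were found on either strand in 3.67% of all promoters and in 8 of the 29 members with an entry. Of those 8, 3 were higher against both arrays, and their medians were 0.32 and -0.11.

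Chaperones and metallothioneins were mostly higher at 48 h by small amounts, and chaperones were so in parental cells too. Of 18 heat shock and chaperone genes 14 were higher and 3 lower, with medians of 0.24 and 0.18, and 0 were called by limma (0 also at an unadjusted p under 0.05). In each parental pair 17 of the 18 were higher at 48 h, with medians of 0.11 in DMSO and 0.18 with PT2399. HSPB1, a small heat shock protein, stood at 7142, 6915 and 8801 (0.32, SE 0.17, limma adjusted p = 0.195). Of 9 metallothionein and metal response genes 7 were higher and 1 lower, with medians of 0.33 and 0.15, against 0.03 and 0.08 in the parental pairs, and 0 were called by limma, adjusted or not. MT1X, a metal-binding protein, stood at 3688, 3994 and 4947, and MT1E at 4769, 5658 and 6749; metallothionein genes are near-identical, so their probe sets can share signal.

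Cytokine genes rose and fell. In the list of NF-kB targets, cytokines and chemokines 15 of 31 were higher and 13 lower, with medians of 0.15 and -0.03. CCL20, a chemokine, stood at 397 at 24 h in DMSO, 751 at 24 h with PT2399 and 1533 at 48 h (1.49, SE 0.30, limma adjusted p = 0.0181). In parental cells CCL20 was lower at 48 h, by -1.56 in DMSO and -0.50 with PT2399, but the difference between genotypes of 2.52 (SE 0.49) did not pass (limma adjusted p = 0.0925). IL18, a cytokine of the interleukin 1 family, rose from 727 and 849 to 1338, while CSF3 and LIF, the latter at 804, 1001 and 551, fell.

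Genes tied to HIF2a, the factor these cells lack by label, were mixed in direction. Of 26 HIF2a-linked genes 14 were higher and 9 lower against both arrays, with medians of 0.15 and 0.04, against -0.21 and 0.18 in the parental pairs. LOX, a collagen-crosslinking enzyme, rose from 160 and 131 to 246, and SLC2A3, the glucose transporter GLUT3, fell from 840 and 743 to 505. CCND1, the G1 cyclin D1, stood at 932, 994 and 1063 (0.14, SE 0.17, limma adjusted p = 0.567). HIF1A stood at 1319, 1383 and 1618 and ARNT, the shared partner of HIF subunits, at 701, 665 and 549, with limma adjusted p-values of 0.291 and 0.210. In the glycolysis and hypoxia-linked list 13 of 28 were higher and 9 lower, with ERO1A, an oxidase of the endoplasmic reticulum, 1 of 3 members that rose by limma, going from 1063 and 1050 to 1820. TXNIP, the thioredoxin-interacting protein, stood at 1311, 1701 and 1419, near 0 (-0.07, SE 0.20, limma adjusted p = 0.812), where the parental pairs were at -0.67 and -1.12; the difference did not pass (limma adjusted p = 0.187).

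Ribosomal protein genes and respiratory chain genes, both bright groups, lay near the background. Of 32 ribosomal protein genes 18 were higher and 8 lower, with medians of 0.12 and 0.05, and RPL23, dim for its kind (above), was the member that rose. With quantile normalization the list median against the mean of the 24 h arrays turned from 0.09 to -0.02. Of 33 genes of oxidative phosphorylation 13 were higher and 14 lower, with medians of 0.02 and -0.02, and NDUFA1 and SDHC, subunits of complexes I and II, fell from 891 and 897 to 542 and from 659 and 639 to 408. Cholesterol synthesis genes had 8 of 21 higher and 10 lower, with STARD4 and CYP51A1 rising. Ribosome biogenesis genes had 18 of 35 higher and 11 lower, and NOP58, a core protein of box C/D small nucleolar RNA particles, rose from 1755 and 1814 to 2671 (0.58, SE 0.17, limma adjusted p = 0.0455).

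**Figure D5:**
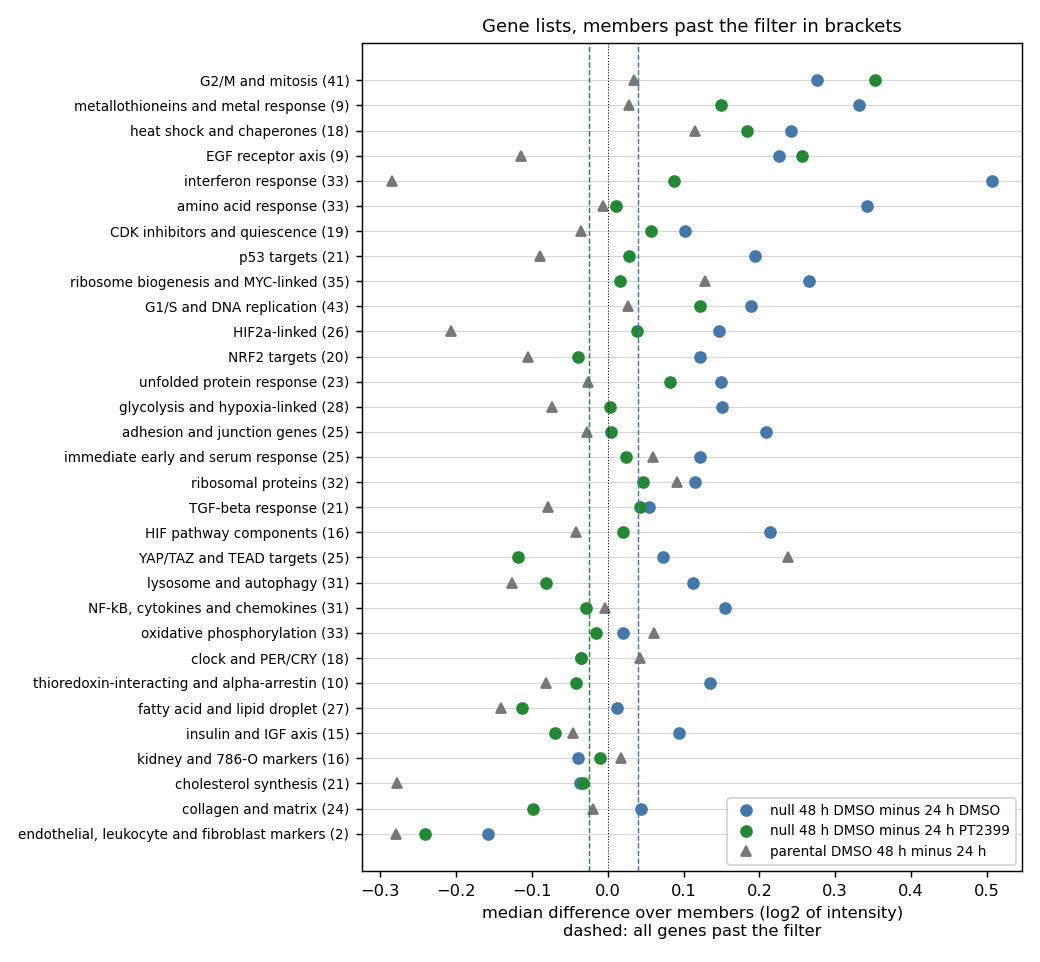
Median difference on the log2 scale over the members past the filter of each of 31 gene lists, for null 48 h DMSO against 24 h DMSO (blue), against 24 h PT2399 (green) and for the parental DMSO pair (grey triangles), with dashed lines at the medians of all genes, 0.04 and -0.02. Mitosis genes lie at 0.28 and 0.35, whereas interferon genes lie at 0.51 against DMSO and 0.09 against PT2399.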

How the data were processed

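Total RNA (100 ng per array) was labelled with an Affymetrix whole-transcript kit, per the labels' protocols, and 8 arrays were deposited. The deposited values are linear probe set intensities; how the authors corrected background, summarised and scaled them was not given in the sources used here. They were taken to log2. Of 33252 probe sets 19460 had 1 gene in the platform annotation, and 19429 of these were updated through Entrez identifiers to RefSeq names (GRCh38.p14). A gene is its brightest probe set, and genes under the percentile 40 of mean level over 7 arrays were left out. Hosts are genes whose RefSeq span holds the small RNA, without regard to strand; only names and nesting were taken from that table.

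Single pairs of arrays were compared by counts past 2-fold, with no test. limma 3.58.1 in R 4.3.3 (lmFit, eBayes, Benjamini-Hochberg over 11050 genes, threshold 0.05) gave the tests. Simulated arrays all had independent noise scaled from the pair of 24 h null arrays, with no shift by level or gene length. Gene spreads were drawn in the form that eBayes assumes, so a low number of false calls was built in. The simulation therefore does not bear on how the real 48 h array varies. On simulated data with 200 changed genes of 11050, the fit for the 3 null arrays recovered 22% of 2-fold and 99% of 4-fold changes with 1 false call, and the fit for the null minus parental difference 24% and 100% with 3 false calls.

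The comparison, lists and rules were chosen with earlier results of these data known. Named genes are the 15 largest rises and falls by the smaller of both differences, passing over small RNAs, near-identical families and genes with only a locus or reading frame name, at most 5 leading genes per list, and EPAS1, HIF1A, ARNT, CCND1, MKI67 and TXNIP; other genes named were chosen after their values were seen. Lists hold textbook members, and 1 gene can be in several. RNA classes and bins of level and span were added after the data were seen. Promoters are the first RefSeq entry of each symbol. Nothing says that arrays came from separate cultures, so p-values measure the spread between these arrays, which may be technical.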

Additional observations from a re-analysis of the deposited data

Results flagged for a closer look

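In 3 protein-coding genes the time difference in null cells differed from that in parental cells by limma on 7 arrays. The null minus parental time difference was 2.21 for MMP7, 1.73 for CLDN2 and 1.65 for PLXDC2. All 3 lost the call with no filter and with a PT2399 term in null cells (adjusted p = 0.264 for each in the latter), and CLDN2 and PLXDC2 also after quantile normalization (0.0719 and 0.0738) and with parental DMSO arrays alone (0.0567 for both). In TMEM41B, a lipid scramblase of the endoplasmic reticulum needed for autophagy, the null 48 h array lay 1.15 above the mean of the 24 h arrays while the parental DMSO pair was at -0.25 and the parental PT2399 pair at -0.003, close to 0; this contrast was picked for its signs, and the limma test of the difference did not pass (adjusted p = 0.0860).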

How the results depend on the processing

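Counts are given as higher and lower. With quantile normalization, 2-fold counts were 225 higher against 24 h DMSO, 129 and 77 against 24 h PT2399 and 66 and 50 against both; limma on the null arrays called 112 and 80, and the null minus parental difference 4. With log2(value + 16) there were 52 higher against DMSO, 91 lower against PT2399, 1 higher between the 24 h arrays and 20 calls for the difference. Without the filter the counts were 167 and 646, 156 and 365, 57 and 204 and, between the 24 h arrays, 20 and 98; limma called 3 and 2, and 1 for the difference. With the filter at the 60th percentile they were 53 and 118, 42 and 60, 16 and 50, and 1 and 11; limma called 361 lower, and 236 for the difference. Centring left 458 limma calls higher. A 1.5-fold limit gave 1130 and 1381 against DMSO and 467 and 802 against both. With the spread from 7 arrays limma called 246 and 360; for the difference, parental DMSO arrays alone gave 5 calls and a PT2399 term in null cells 0, with 1841 genes at an unadjusted p under 0.05. The causes were not tested. Of 1191 values for 178 named genes 152 moved by more than the spread between the 24 h arrays, and 1 changed sign, ACTA2, not called by limma, from -0.15 to 0.04 with quantile normalization. Of 217 list medians 10 moved, and 18, in 11 lists, changed sign; these medians were at most 0.25 in size, and none belonged to a list with 75% of members on one side. The 10 genes called for the difference kept their sign wherever tested. No paired analysis was possible because each group has 1 array. With 1 array at 48 h, no value here measures the spread between 48 h cultures.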
